A study of Mus musculus with 2 samples.

Results

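Il4 (ENSMUSG00000000869) encodes the secreted cytokine interleukin 4, and this report follows its messenger RNA through T cells of mouse visceral fat. It was chosen by name, as 1 of the 32285 genes counted in each of 2 single-cell libraries, and the cells that carry it are those with at least 1 Il4 UMI (unique molecular identifier, a tag that marks 1 captured RNA molecule). Such cells numbered 127 of 6218 T cells in the wild-type library (WT) and 709 of 6790 in the library from mice lacking CD27 (CD27_KO). The gene lies on the minus strand of mm10 chromosome 11 from 53602982 to 53618669, and its main transcript in the GENCODE annotation has 4 exons, the first from 53618475 to 53618669.

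IL-4 is the defining cytokine of T helper 2 cells and is also made by basophils, mast cells, eosinophils and invariant NKT cells. It binds a receptor built of IL-4Rα and the common γ chain, which signals through JAK1 and JAK3 to STAT6, and STAT6 in turn raises Gata3, the transcription factor that opens the Il4, Il5 and Il13 locus in T cells. Through IL-4, T cells drive IgE class switching in B cells and alternative activation of macrophages, and in fat type 2 cytokines are tied to the state of resident macrophages and to insulin sensitivity. Transcription of Il4 in a primed cell depends on recent antigen receptor signalling, which brings NFAT to its promoter, so at any moment many cells able to make IL-4 hold none of its RNA.

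The 2 groups were WT mice and CD27-/- mice, which lack the costimulatory receptor CD27 in all tissues. TCRb+ CD4+ cells were sorted out of the stromal vascular cells of visceral fat, pooled over mice, and each genotype gave 1 droplet library of 3′ ends. The labels give C57BL/6 as the genotype of both samples, so the groups rest on the titles, and age, sex and diet are not stated. The pools cannot be resolved into mice, so no test between genotypes was possible, and every interval in the text covers counting error alone.

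The stretches of 250 bases that end where the coding strand of Il4 and of its neighbours Il13 and Il5 starts to be transcribed are printed here because the 3 genes share a locus yet differed between the libraries in the cells described further on. They come from RefSeq (GRCm38.p6) and run 5′ to 3′ on each gene's own strand, with capitals marking GGAAA, the core of the sites bound by NFAT, or its reverse complement TTTCC. The Il4 window ends at 53618666, just inside the first exon of the GENCODE transcript, which starts at 53618669 on this strand.
Il4, chr11:53618666-53618915, minus strand: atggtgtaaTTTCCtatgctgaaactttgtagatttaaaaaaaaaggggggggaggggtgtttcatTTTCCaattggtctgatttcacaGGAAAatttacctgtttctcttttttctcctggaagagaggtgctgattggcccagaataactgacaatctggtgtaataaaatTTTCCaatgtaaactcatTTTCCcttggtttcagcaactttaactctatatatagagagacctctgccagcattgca
Il13, chr11:53634703-53634952, minus strand: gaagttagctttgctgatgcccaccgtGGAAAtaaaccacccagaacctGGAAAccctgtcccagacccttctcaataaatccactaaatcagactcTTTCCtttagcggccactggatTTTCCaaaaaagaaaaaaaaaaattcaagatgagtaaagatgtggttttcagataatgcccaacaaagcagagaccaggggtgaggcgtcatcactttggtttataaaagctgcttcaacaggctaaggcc
Il5, chr11:53720544-53720793, plus strand: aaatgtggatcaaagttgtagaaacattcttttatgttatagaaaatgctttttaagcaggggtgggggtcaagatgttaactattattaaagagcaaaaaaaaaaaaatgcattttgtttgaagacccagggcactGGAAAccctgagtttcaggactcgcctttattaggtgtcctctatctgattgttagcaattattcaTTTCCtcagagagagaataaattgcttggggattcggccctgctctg
The Il4 window held 5 such matches, the Il13 window 4 and the Il5 window 2. Among 32851 mouse promoter windows of this length, 55.6% held at least 1 match on either strand, the median was 1, and 0.390% held 5 or more. Few windows thus held as many of these letters as that of Il4, which describes sequence and not bound sites. GATAA, 1 form of the sites read by GATA factors, had 1 match in the Il13 window and none in the windows of Il4 and Il5. Of all windows, 22.6% held at least 1. Other forms of these sites were not counted, so a window without GATAA may still hold a GATA site.

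Cd27 was at 2077 UMIs in 1581 WT T cells and at 15 UMIs in 14 CD27_KO T cells, which fits the titles. Median depth was 1933 UMIs per WT T cell and 2200.5 per CD27_KO T cell, and 12 cell barcodes occurred in both libraries. Every one of the 127 and 709 cells with Il4 had a UMI of at least 1 of 7 T cell genes (Cd3d, Cd3e, Cd3g, Cd4, Trac, Trbc1 and Trbc2), and 122 and 678 of them had at least 3. Cd4 itself was seen in 37.8% of them in WT and 29.9% in CD27_KO, against 25.1% and 30.9% of T cells without Il4. Defining genes of other IL-4 producers were missing from cells with Il4 in both libraries, namely Mcpt8, Fcer1a, Ms4a2, Gata2 and Prss34 of basophils and mast cells, Siglecf, Epx and Prg2 of eosinophils, and Trav11 and Trav11d of invariant NKT cells. Each of these genes had only 0 or 1 UMI over all T cells of a library, so their absence does not set apart the cells with Il4. Of the whole list of 8 basophil and mast cell genes, 2 in WT and 3 in CD27_KO had any UMI in these cells. Its summed level was 92.8 CPM (UMIs of a gene per 1000000 counted) in WT cells with Il4 against 17.4 in those without, and 59.6 against 30.7 in CD27_KO. Nearly all of it was Hdc, the histamine-forming enzyme, in 9 and 48 cells with Il4. The eosinophil list summed to 7.00 against 17.7 CPM in WT and 10.2 against 7.54 in CD27_KO, and the invariant NKT list to 259 against 315 and 248 against 312. Most UMIs of the invariant NKT list were Icos, 118 and 611 in cells with Il4, so its sum mainly follows that gene. The innate type 2 list stood at 2898 against 2079 CPM in WT and 3326 against 2040 in CD27_KO. It shares Gata3 and Il1rl1 with the Th2 markers. The gamma delta T cell list stood at 19.3 against 16.9 and 27.3 against 13.1.

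Il4 stood higher in the library from CD27_KO mice, over all T cells, within the Th2-like, Th1-like and Treg-like states and in the unnamed cluster 1. Summed over all T cells, Il4 had 177 UMIs in WT (11.1 CPM, 95% exact Poisson interval 9.55 to 12.9) and 1090 in CD27_KO (55.1 CPM, 51.9 to 58.4). In CD27_KO over WT this gave a log2 ratio of 2.31 (2.08 to 2.54), at rank 15 among 9758 genes with at least 100 UMIs. Past 1.5-fold, 7.09% of those genes were higher in CD27_KO (692 genes) and 2.88% lower (281). The median gene stood at 0.17 on this log2 scale, and with the libraries scaled to their median gene the counts turned to 328 higher and 421 lower while Il4 stayed at 2.13.

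In WT, 2.04% of T cells had an Il4 UMI (95% exact Clopper-Pearson interval 1.71 to 2.43), and in CD27_KO 10.4% (9.72 to 11.2). Deeper cells reveal more of a scarce RNA, so each cell was also thinned at random to 1300 UMIs, which left out 536 WT and 54 CD27_KO shallower cells. One such draw gave 0.95% and 5.20%, and the average over all possible draws was 1.09% and 5.61%. CD27_KO thus stayed above WT at equal depth. Naive-like T cells, which should make no IL-4, serve as the background: 2 of 1287 in WT (0.155%, median depth 1864 UMIs) and 1 of 311 in CD27_KO (0.322%, median depth 2075). Whether free RNA in droplets gave these counts was not tested. Among the few sorted cells that were not T cells, 1 of 120 and 1 of 63 had an Il4 UMI.

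Where do the UMIs lie? Cells of both libraries were clustered together with Il4 and Cd27 kept out of the clustering, and clusters were named from marker lists where these were clear. Most Il4 UMIs lay in the Th2-like clusters 4 and 8, where Il1rl1 (the IL-33 receptor ST2) and Gata3 were among the enriched markers and Tnfsf11 and Rnf128 among the leading genes. They held 50.8% of Il4 UMIs in WT and 67.1% in CD27_KO. A cluster without a clear name, cluster 5, marked by Ccl1, Csf2, Bcl2a1d and Bhlhe40, held 15.3% and 14.5%. Treg-like cells (Foxp3 and its partners) held 18.6% of the WT UMIs and 2.11% of those in CD27_KO, and Th1-like cells 5.08% and 12.8%.

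**Figure D1:**
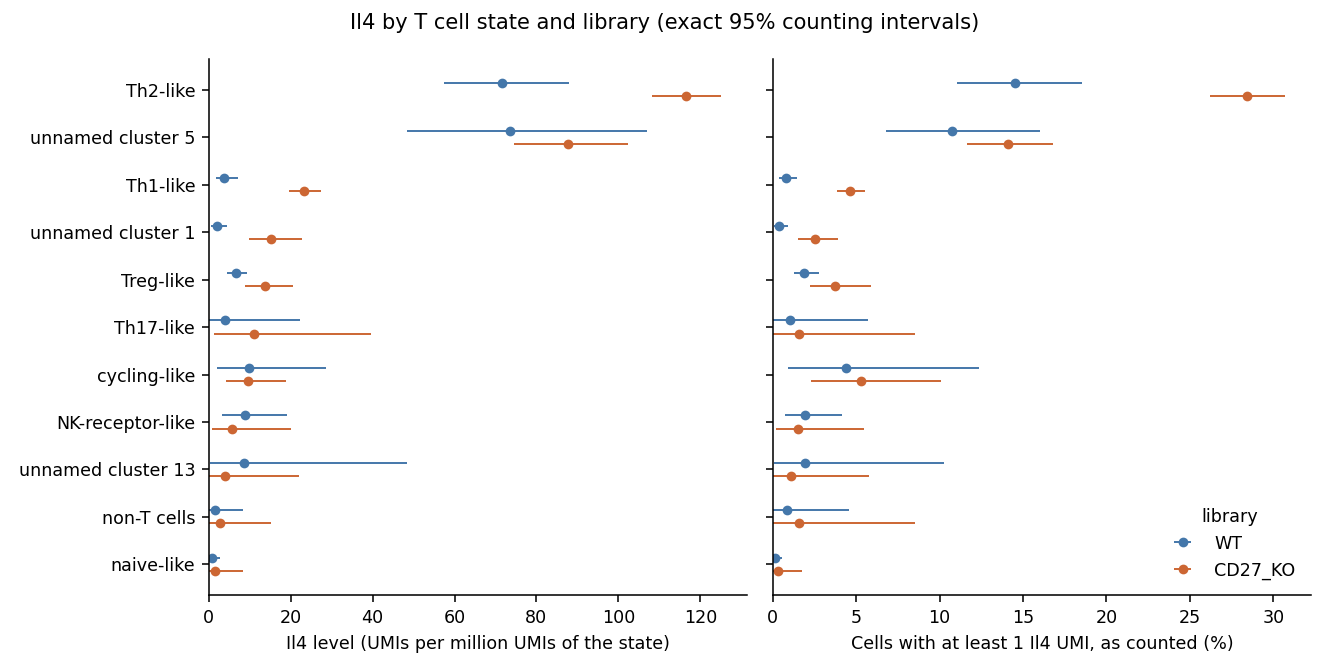
Il4 level in CPM (left) and percent of cells with at least 1 Il4 UMI (right) in each T cell state and in non-T cells, for WT and CD27_KO, leaving out states with under 50 cells in a library; bars are 95% exact intervals that cover counting error only. The Th2-like state and cluster 5 lead in both libraries, and the Th1-like state stands at 4.62% of cells in CD27_KO against 0.774% in WT.

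Among Th2-like cells, 53 of 365 in WT (14.5%) and 441 of 1552 in CD27_KO (28.4%) had an Il4 UMI. The level in this state was 71.5 CPM in WT and 116 CPM in CD27_KO, a log2 ratio of 0.70 (0.39 to 1.04). Within it, cluster 4 went from 89.3 to 168 CPM (log2 0.91, 0.52 to 1.33) and the deeper cluster 8 from 52.6 to 73.4 CPM, where the interval of the log2 ratio reached 0 (0.48, -0.05 to 1.06). The state was also far more common in CD27_KO, at 22.9% of T cells against 5.87%. With every cluster given the same share of cells in both libraries, Il4 stood at 20.5 CPM in WT and 40.2 CPM in CD27_KO, a log2 ratio of 0.97 in place of 2.31.

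Cluster 5 also carried Il4 in both libraries, with a gap between them that lay within its counting interval. Its share of positive cells was 21 of 195 (10.8%) in WT and 103 of 732 (14.1%) in CD27_KO, and its level 73.6 and 87.6 CPM (log2 0.25, -0.34 to 0.90). Fewer of its Il4 cells carried Il1rl1 than in the Th2-like state, 7 of 21 in WT and 36 of 103 in CD27_KO, against 44 of 53 and 396 of 441. Doublets (droplets with more than 1 cell) may sit in it: 15.5% of its CD27_KO cells with Il4, but 7.31% of those without, lay in the top 5% of the library's doublet scores, and their part in the result was not tested.

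Th1-like cells, marked by Tbx21, Ifng, Cxcr3, Ccl5 and Nkg7, showed the widest gap among the named states with UMIs to compare. In WT, 9 of 1163 (0.774%, 0.354 to 1.46) had an Il4 UMI, an interval that overlaps the naive-like background. In CD27_KO, 115 of 2491 did (4.62%, 3.83 to 5.52), above the naive-like interval of 0.00814 to 1.78. The log2 ratio of the levels, 3.75 and 23.2 CPM, was 2.63 (1.66 to 3.79). This interval lies above that of the Th2-like state, although the difference between states was not tested across mice. The state joins cluster 3, with 856 WT and 677 CD27_KO cells, and cluster 0, with 307 and 1814, and both showed the gap. Cluster 3 stood at 3.23 against 21.6 CPM (log2 2.74, 1.35 to 4.47), on 5 WT UMIs. Cluster 0 stood at 4.69 against 23.6 CPM (log2 2.33, 0.93 to 4.23), on 4 WT UMIs.

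The 115 CD27_KO Th1-like cells with Il4 showed Ccl5 and Ifng less often than the rest of their state, while Tbx21 and Cxcr6 did not clearly differ. Ccl5 was seen in 69.6% of them, against 79.9% of the other Th1-like cells weighted to the same depth, and Ifng, the Th1 cytokine, in 13.9% (8.17 to 21.6) against 25.4%. Cxcr6, a tissue homing receptor that was not among the markers enriched in the clusters of this state, was in 43.5% against 44.8%. Il1rl1 was seen in 7 of them (6.09%, against 3.53%) and Foxp3 in 0 of 115, which allows a share of up to 2.61%. Gata3 was seen in 42.6% (33.4 to 52.2) against 34.2%. Cells in the top 5% of doublet scores made up 3.48% of those with Il4 and 3.24% of those without. Most Il4 cells of this state thus had no UMI of Il1rl1, a marker of the Th2-like clusters.

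Treg-like cells had few Il4 UMIs, and nearly all sat in 1 of their 3 clusters. In cluster 6, 25 WT and 16 CD27_KO cells were positive, at 9.13 and 20.2 CPM (log2 1.15, 0.27 to 1.99), and Foxp3 itself was seen in 11 of the 25 and 11 of the 16. Cluster 7 had 2 positive cells in each library, and cluster 10 had 0 of 219 and 0 of 193, which allows shares of up to 1.37% and 1.55%. Cluster 6 cells were deep, at a median of 4554.5 and 4897.5 UMIs, so their shares are not comparable with those of shallower states. Cluster 1, unnamed and marked by Slamf6, stood near background in WT, with 4 of 1127 positive in WT and 18 of 717 in CD27_KO (1.92 and 15.2 CPM). Its log2 ratio of 2.99 (1.57 to 4.74) was above the 2.63 of the Th1-like state, on 5 WT UMIs. The interval of its CD27_KO share still meets the naive-like one. Follicular-helper-like cells, another textbook source of IL-4, had 0 of 72 in WT, which allows a share of up to 4.17%, and only 3 cells in CD27_KO. In the NK-receptor-like cluster 6 of 313 and 2 of 130 cells were positive, in cycling cells 3 of 68 and 8 of 152, and in Th17-like cells 1 of 95 and 1 of 63, too few to compare.

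The cells were also divided by UMIs of 3 genes in place of clusters. Cells with Il1rl1 and Gata3 but no Foxp3 had an Il4 UMI in 50 of 583 in WT (8.58%) and 355 of 1319 in CD27_KO (26.9%). Cells with Foxp3 and Il1rl1 stood at 4.33% and 18.2%, and cells with none of the 3 genes at 0.532% (20 of 3762) and 3.76% (122 of 3246). As counted, Il4 was more often seen in CD27_KO in all 6 classes of this gate. At 1300 UMIs per cell this held in the 4 classes without Foxp3, where the Il1rl1 and Gata3 class stood at 3.56% and 12.2% and Il1rl1 alone at 2.51% and 12.3%. The classes with Foxp3 were nearly empty of Il4 at that depth, with 0 of 126 and 2 of 45 for Foxp3 and Il1rl1, and 0 of 163 and 0 of 110 for Foxp3 alone.

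Few molecules were caught per cell. Of the positive cells, 92 of 127 in WT and 476 of 709 in CD27_KO had exactly 1 Il4 UMI, and the mean was 1.39 and 1.54. The share with at least 2 was 27.6% (20.01 to 36.2) and 32.9% (29.4 to 36.5), intervals that overlap widely. The libraries therefore differed in how many cells had an Il4 UMI, while the number of UMIs per positive cell could not be told apart at this depth. As counted, Th2-like positive cells most often had 2 or more, in 45.3% and 40.6%, against 19.0% and 21.4% in cluster 5. They were also deeper, at a median of 3006 and 3252 UMIs against 1761 and 2201, so these shares are not compared at equal depth. Thinned to 1300 UMIs, the mean over all positive T cells was 1.24 and 1.26. At that depth the CD27_KO means of the Th2-like state and cluster 5 were level, at 1.30 and 1.31. In WT they were 1.39 and 1.15, on only 28 and 13 positive cells.

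**Figure D2:**
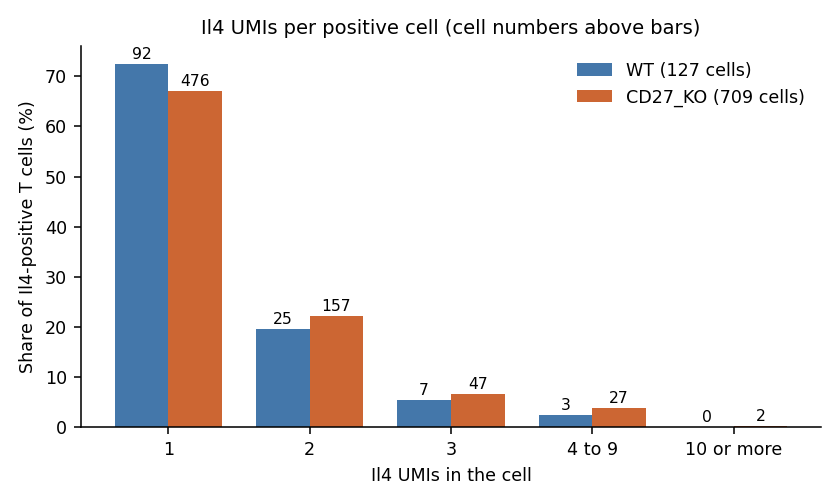
Bars give the percent of Il4-positive T cells that hold 1, 2, 3, 4 to 9, or 10 or more Il4 UMIs, in WT and CD27_KO, with the number of cells above each bar. Cells with 1 UMI make up most of both libraries, 92 of 127 in WT and 476 of 709 in CD27_KO.

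A few cells held many Il4 UMIs. The richest 10% of the positive cells, 13 in WT and 71 in CD27_KO, held 23.2% and 26.1% of the Il4 UMIs. The highest WT cell had 6. In CD27_KO the highest had 25 and the next 11. That richest cell belonged to cluster 5 and also had 18 UMIs of Csf2 and 9 of Ifng, 2 of Il1rl1 and 0 of Gata3, among 3219 in all.

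Deeper cells more often showed Il4, and the CD27_KO library stood higher in each depth class of 1300 UMIs and above. In the deepest cells of each library the share with an Il4 UMI was 7.53% in WT and 24.0% in CD27_KO. Below 1300 UMIs, 0.746% of WT cells and 0 of 54 CD27_KO cells had one. Within the Th2-like state the WT share was 9.18%, 15.0%, 19.0% and 17.7% over the depth classes from 1300 UMIs on, and the CD27_KO share went from 22.8% to 38.4%. Per UMI sequenced the trend ran the other way in Th2-like CD27_KO cells, where Il4 went from 204 CPM in the shallowest of those classes to 85.1 CPM in the deepest.

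**Figure D3:**
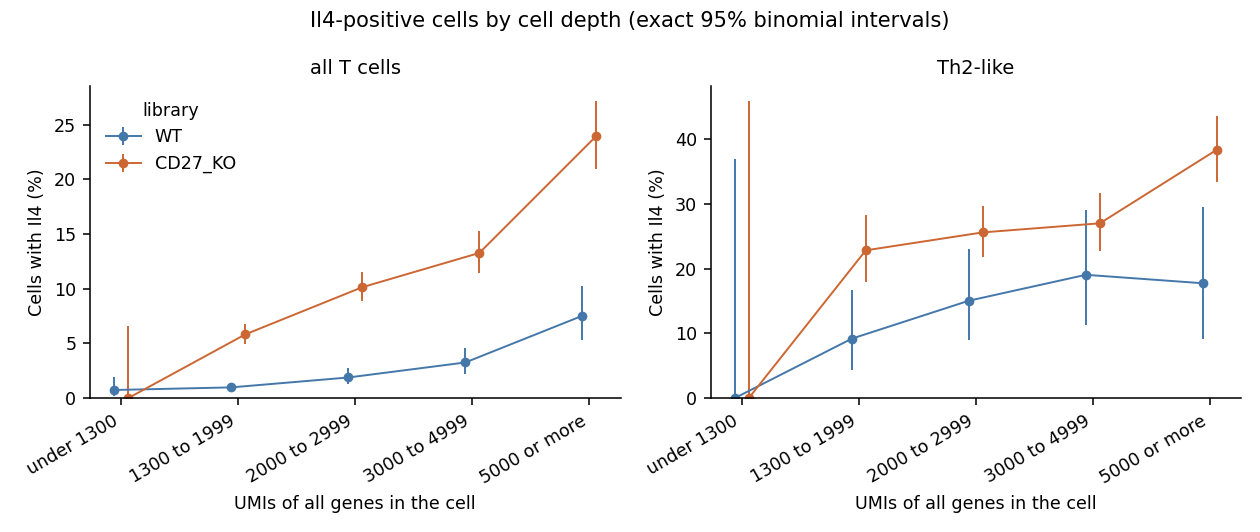
Percent of cells with an Il4 UMI against the depth of the cell, for all T cells and for Th2-like cells, WT and CD27_KO, with 95% exact intervals that cover counting error only. Over all T cells the share is highest in the deepest class of both libraries, and CD27_KO lies above WT in each class from 1300 UMIs on, up to 24.0% against 7.53% in the deepest T cells.

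Among type 2 cytokines, Il4 mostly stood alone in its cell. No UMI of Il5 (which drives eosinophils) or Il13 (which shares a receptor chain with IL-4) was seen in 108 of 127 WT cells with Il4 (85.0%) and in 651 of 709 CD27_KO cells (91.8%). Il5 without Il13 was seen in 10 and 28, Il13 without Il5 in 4 and 20, and both in 5 and 10. Read from the other side, 19 of the 103 WT cells with Il5 or Il13 (18.4%) and 58 of 190 in CD27_KO (30.5%) also had Il4. At 1 to 2 UMIs a cell, a cytokine that was not seen may still be present.

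Within the Th2-like state Il4 and its 2 partners went in opposite directions between the libraries. Il4 was higher in CD27_KO (log2 0.70), whereas Il5 went from 134 CPM in WT to 51.9 CPM (log2 -1.37, -1.64 to -1.09) and Il13 from 120 to 33.9 CPM (log2 -1.82, -2.13 to -1.51). Past 1.5-fold, 6.74% of genes were higher and 1.83% lower in CD27_KO within this state. In shares of cells, Il4 went from 14.5% to 28.4%, Il5 from 15.9% to 7.54% and Il13 from 6.85% to 3.93%. Il5 and Il13 helped to form the clusters and name them, so the state was rebuilt with every cytokine left out of the clustering. Its naming still used the marker list with Il5 and Il13. The rebuilt state was smaller, at 285 WT and 1124 CD27_KO cells in place of 365 and 1552. In WT it held 58 UMIs of Il4, 110 of Il5 and 91 of Il13, as many as cluster 4 alone. There Il4 stood at 84.4 and 165 CPM (log2 0.96, 0.57 to 1.38), Il5 at log2 -1.38 and Il13 at log2 -1.74.

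The size of the opposite shift depended on which cells counted as Th2. In the class with Il1rl1 and Gata3 and without Foxp3, Il4 stood at 32.1 CPM in WT and 106 CPM in CD27_KO (log2 1.72, 1.37 to 2.10). Il5 was level there (log2 -0.05, -0.37 to 0.27) and Il13 lower by less (log2 -0.43, -0.81 to -0.05), or -0.24 without its richest cell in each library. Over all T cells both were above WT, Il5 at log2 0.56 and Il13 at 0.21. The gap between Il4 and the other 2 genes held in every one of these divisions, while a lower level of Il5 and Il13 in CD27_KO did not. Il13 also rests on few cells: in cluster 8, 1 WT cell held 80.0% of its UMIs, and without the richest cells the log2 ratio there went from -1.88 to -0.01.

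Cells with Il4 held several other secreted factors more often than cells without it at the same depth, and others less often. Among the 31 cytokine genes measured in WT, 14 were at least 1.5-fold more often seen and 11 less often after thinning, against 23.0% and 41.7% of all genes. Among the 30 in CD27_KO, 11 were more often and 7 less often seen, against 9.73% and 20.1% of all genes. With cells without Il4 weighted to the same depth instead, 10 genes in WT and 11 in CD27_KO were more often seen. The shares of single genes that follow are weighted in this way unless thinning is named. Il13 showed a wide gap, in 7.09% of WT cells with Il4 against 0.73% without and in 4.23% against 1.08% in CD27_KO. Il5 followed with 11.8% against 2.04% and 5.36% against 2.66%. Both are Th2 markers, and 41.7% of WT and 62.2% of CD27_KO cells with Il4 lay in Th2-like clusters.

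Factors beyond the type 2 family were seen with Il4 too. Csf2, which encodes the myeloid growth factor GM-CSF, was in 24.4% against 5.10% of WT cells and 13.7% against 5.05% of CD27_KO cells. Tnfsf11, the ligand RANKL, was in 41.7% against 14.2% and 46.3% against 22.7%. Calca, which encodes the neuropeptide CGRP, was in 10.2% against 1.90% and 10.0% against 3.27%, and the macrophage growth factor Csf1 in 17.3% against 4.93% and 17.9% against 8.87%. Each of these 4 genes was at least 2.02-fold more frequent with Il4 in both libraries. Lif leaned the same way on few cells (7 and 22). Il6 (7 and 32 cells) and Ccl1 (3 and 22) did so only with weighting: after thinning, 0 of 54 WT cells with Il4 had either gene, and in CD27_KO Il6 stood at 2.49 times and Ccl1 at 0.38 times its share without Il4. Csf2 and Tnfsf11 are also among the Th2 markers. Within Th2-like cells, Csf2 was in 30.2% with Il4 against a weighted 28.7% in WT, and 18.8% against 13.3% in CD27_KO. Calca was there in 15.1% against 9.85% and 14.3% against 9.78%.

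Common T cell factors were spread more evenly. Cd40lg, the helper signal to B cells, was in 80.3% and 80.1% of cells with Il4, 1.47 and 1.17 times its weighted share without, and Il2 in 26.0% and 31.6% (1.40 and 1.28 times). Tgfb1 stood at 1.49 and 1.25 times and Areg, an epidermal growth factor receptor ligand, at 1.27 and 1.56 times. Th1 factors leaned away from Il4: Ifng stood at 0.77 and 0.58 times, Ccl5 at 0.72 and 0.64 times, and Xcl1, in 4 and 22 cells, at 0.41 and 0.43 times. Even so, 16 WT and 88 CD27_KO cells had UMIs of both Il4 and Ifng.

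**Figure D4:**
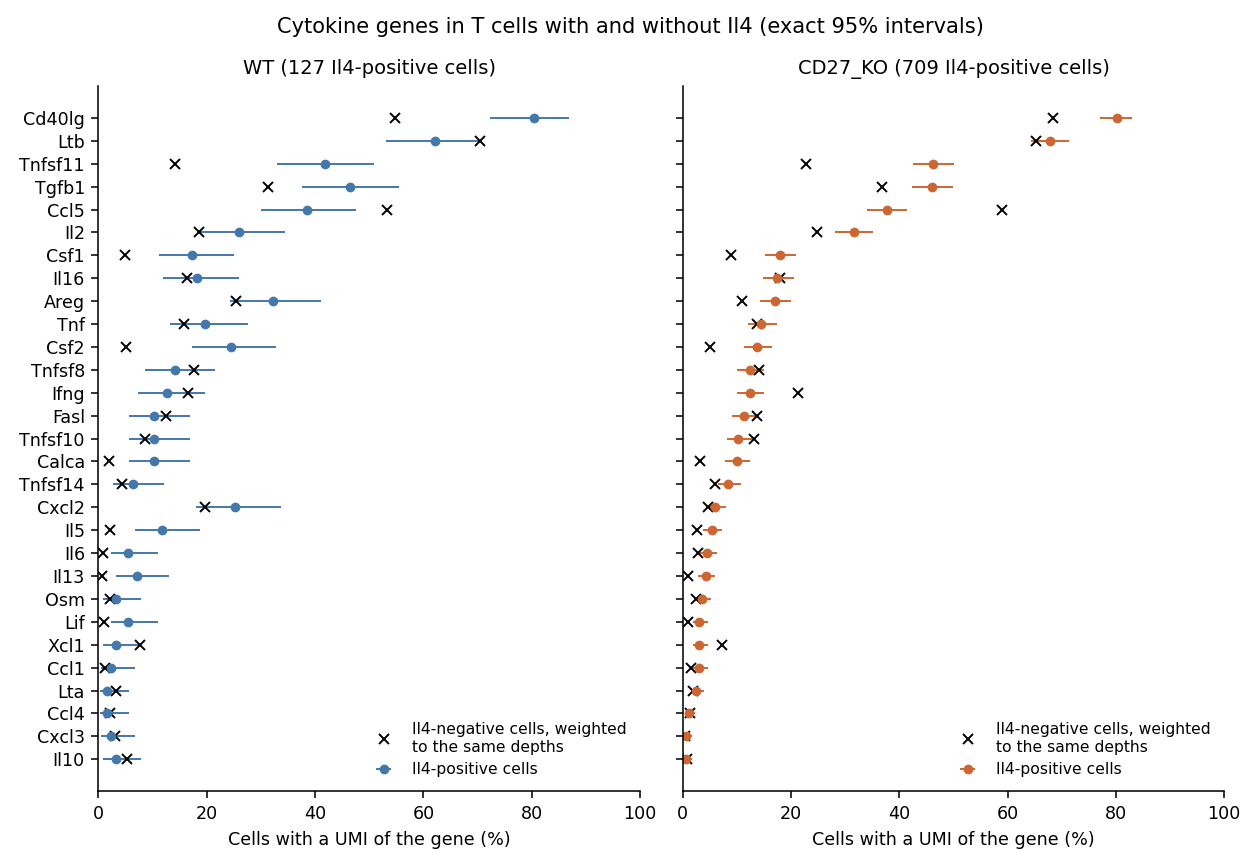
Percent of cells with a UMI of each cytokine gene in WT (left) and CD27_KO (right): dots with 95% exact intervals (counting error only) are cells with Il4, and crosses are cells without Il4 weighted to the same depth. The dots of Tnfsf11, Csf2, Il5 and Il13 lie to the right of their crosses in both libraries, and the dots of Ccl5 lie to the left.

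The gaps were fewer among cells of 1 state. Within Th2-like cells, 5 of 18 measured cytokine genes were at least 1.5-fold more often seen with Il4 in WT (against 20.2% of all genes) and 1 lower (31.3%). In CD27_KO it was 1 of 25 higher (11.7%) and 5 lower (21.9%). The gene above the line in CD27_KO was Il13, in 27 Th2-like cells with Il4 (6.12% against 3.32%), and in WT it was in 8 (15.1% against 6.98%). Il5 stood at 1.56 times in WT and 0.98 times in CD27_KO.

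Beyond cytokines, the genes that stood higher in cells with Il4 included receptors, enzymes and transcription factors. Of 9757 genes, 98 (1.0%) were at least 1.5-fold higher in cells with Il4 in both libraries and 22 (0.225%) were lower, on summed CPM plus 10. Those that led in both were Ccl1, Rnf128, Il13, Csf2, Tnfsf11, Calca, Slc7a8, Il1rl1, Atf3, Irs2, Dach2 and Tmem273. Rnf128, the ubiquitin ligase GRAIL, was at log2 2.05 in WT and 1.38 in CD27_KO, and Slc7a8, an amino acid transporter, at 1.49 and 1.27. Il1rl1 stood at 1.26 and 1.28 and the stress factor Atf3 at 1.19 and 1.31.

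Some of the leaders rest on 1 cell. Ccl1, a chemokine, had 198 UMIs in 3 WT cells with Il4, and its log2 ratios of 4.09 and 1.93 became 2.72 and 1.44 without the richest cell of each library. For Il13 the values went from 2.99 and 1.36 to 1.52 and 1.10, so these genes stayed above 1.5-fold. Among the lowest were genes of resting T cells and histones: Dapl1 (log2 -1.96 in WT and -1.28 in CD27_KO), the kinase gene Txk (-1.40 and -1.23), Hist1h2ae, Hist1h2ap and Igfbp4. Within Th2-like cells 1 gene was higher in both libraries (0.0102%, Ccl1, whose WT value turned to -3.16 without 1 cell) and 7 were lower (0.0717%).

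**Figure D5:**
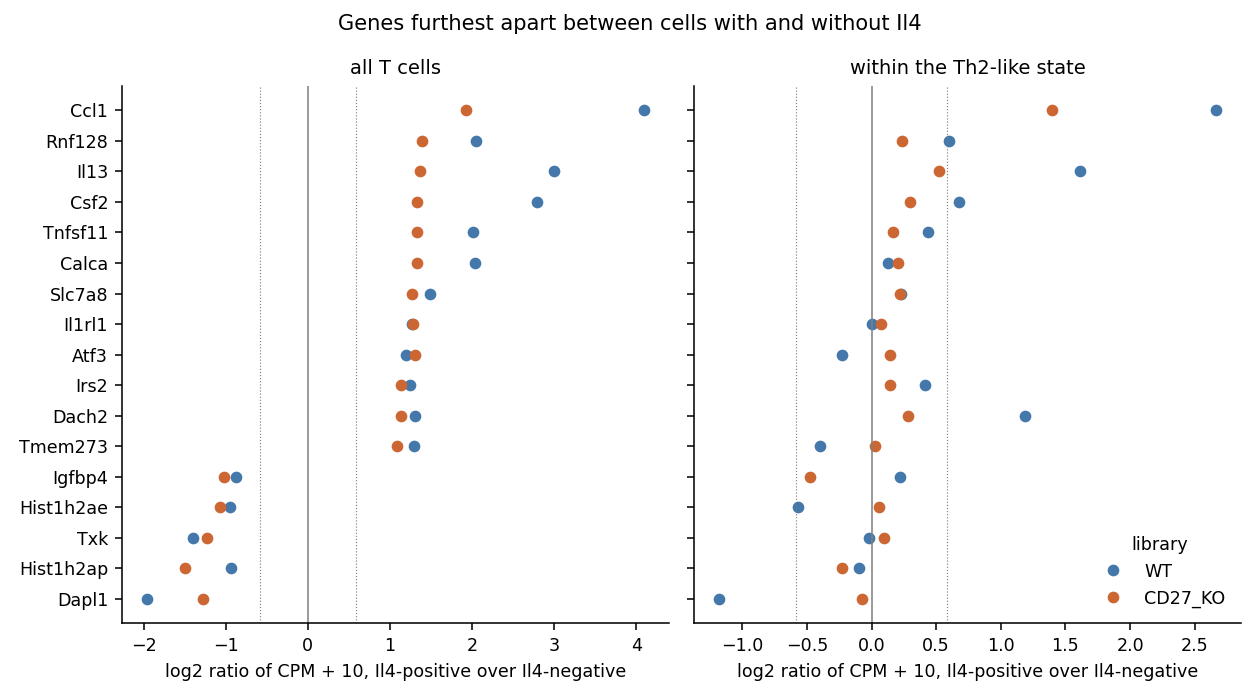
Log2 ratio of the level (CPM plus 10) in cells with Il4 over cells without it, over all T cells (left) and within the Th2-like state (right), 1 dot per gene and library, for leading genes in each direction; dotted lines mark 1.5-fold and no error is drawn. Over all T cells both dots of each gene lie past the same line, such as Il1rl1 at 1.26 and 1.28, while within the Th2-like state most dots lie between the lines.

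Lists of genes that act on Il4 were read in the same contrast, in which 1.0% of all genes were higher and 0.225% lower in both libraries. Within Th2-like cells, 0 members of the activator, repressor, receptor, alarmin and antigen receptor lists passed in both. Of 18 measured activators of Il4 transcription, 2 were higher with Il4 in both libraries, among them Gata3 (log2 1.12 and 0.85), and none was lower. Maf, a Th2 and Tfh activator of Il4, stood at -0.28 and -0.36. Of 7 repressors, among them the Th1 factor Tbx21, none passed 1.5-fold in both. The median of the activators was 0.11 in WT and 0.10 in CD27_KO and that of the repressors -0.15 and 0.03, against 0.02 and -0.01 for all genes.

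Of the genes downstream of the antigen receptor, 5 of 11 were higher in both over all T cells, against the same 1.0% of all genes: the early response factors Nr4a1 (1.28 and 0.87), Nr4a3 (1.30 and 0.82), Egr1 (0.88 and 0.60) and Egr3 (1.25 and 0.96), and Il2ra, the IL-2 receptor α chain (0.84 and 1.03). Such genes also respond to tissue digestion, and its part in the result was not tested. Among 12 genes of IL-4 reception, 3 were higher, all induced by cytokine signals or linked to the receptor: Socs1 (0.89 and 0.90), Cish (1.22 and 0.82) and the adaptor Irs2 (1.25 and 1.14). Of 9 alarmin and type 2 surface receptors, 3 were higher, Il1rl1, the leukotriene receptor Cysltr1 (0.98 and 1.12) and the prostacyclin receptor Ptgir (1.12 and 0.92). No gene of these 3 lists was lower in both.

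Members of the activator, repressor, receptor, surface receptor and antigen receptor lists moved less between the libraries than Il4 did. Over all T cells, 3 of 18 activators were at least 1.5-fold higher in CD27_KO (Rbpj at log2 0.88, Gfi1 at 0.84 and Gata3 at 0.61) and 1 lower (Irf4 at -0.92), and 0 of 7 repressors passed the line, beside the 7.09% and 2.88% of all genes. In the receptor list Irs2 (1.09) and Cish (0.64) were higher and Socs3 (-0.61) lower, and among surface receptors Ptgir (1.37), Ccr4 (0.99), Cysltr1 (0.82) and Il9r (0.75) were higher. The antigen receptor list had 2 higher (Egr1 at 0.81 and Irf8 at 0.79) and 2 lower, the costimulatory receptors Tnfrsf9 (-1.73) and Tnfrsf4 (-0.96), both also carried by Treg cells. Cytokine genes other than Il4 counted 11 higher and 6 lower of 30. Among the lower ones, Cxcl3 (-2.60), Il10 (-2.56) and Cxcl2 (-2.52) moved further than Il4, while none of the higher ones did. With libraries scaled to their median gene those cytokine counts became 5 and 6.

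Il4's neighbours on chromosome 11 were not raised with it to the same degree. Kif3a, a motor protein gene 1.014 kb away, stood at log2 0.85 in CD27_KO over WT, Rad50, a DNA repair gene whose introns hold the locus control region of the type 2 cytokines, at 0.58, Sept8 at 1.33 and Irf1 at 0.21. Il13, 12.654 kb away, stood at 0.21 and Il5, at 102.124 kb, at 0.56, against 2.31 for Il4. In cells with Il4 against those without, Kif3a was at 0.73 in WT and 0.80 in CD27_KO, and Rad50 at 0.16 and 0.43. Il13 stood at 2.99 and 1.36, and Il5 at 2.01 and 0.57, or 1.35 and 0.18 without its richest cell. Of the 6 neighbours, Il13 and Kif3a were thus past 1.5-fold in both libraries (against 1.0% of all genes), and Il5 was not.

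Across 30 units of 1 cluster in 1 library, each of at least 50 cells, the genes whose level ran most like that of Il4 were Prxl2a (Pearson's r 0.899), Pard3 (0.888), Btg2 (0.874), Egr1 (0.868), Selenot (0.866), Acvr2a (0.852), Ptgir (0.839), Ppp1cc (0.838), Nabp1 (0.825) and Arl5b (0.814). Egr1 and Ptgir also stood among the genes higher in cells with Il4. These values describe log2 levels over units that share 2 libraries and their depth, and they carry no test.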

How the data were processed

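Cells sorted as TCRb+ and CD4+ were profiled in 1 library per genotype. The labels' protocols speak of 10 mice pooled, which may mean each pool or both, and name different kit versions in the design and in the sample protocol. Crosses with a CD70 transgene that the design names are not analysed here. Per the file headers, the authors counted UMIs with Cell Ranger 6.1.1, and mm10 is named in the submitters' processing notes. The deposited values are raw counts of called cells, 16628623 UMIs in 6398 WT barcodes and 20191704 in 6893 CD27_KO barcodes. The 1 antibody feature had 0 UMIs.

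Later steps used scanpy 1.11.5 and igraph 0.11.9 for clustering, scipy 1.17.1 for intervals, and matplotlib 3.10.9, under Python 3.11.15. Barcodes with fewer than 500 genes or over 10% mitochondrial UMIs, 60 in WT and 40 in CD27_KO, were dropped. Both libraries were clustered jointly on 2000 variable genes without Il4 and Cd27 (30 components, 20 neighbours, Leiden resolution 1, seed 0), and 120 and 63 non-T cells were set aside. A cluster took the marker list with the highest median log2 ratio provided that 3 or more of its genes were enriched 1.5-fold and detected in 5% of the cluster, and stayed unnamed if a second lymphocyte list reached 0.5 of it or it had under 50 cells. This rule was set with the data in view. Scrublet marked 0 cells in both libraries, so it has not worked as a caller, and its top 5% of scores served only as an alternative.

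Levels are UMIs summed over cells, scaled to 1000000. Intervals at 95% are Clopper-Pearson for shares and Poisson for sums and their ratios, and take UMIs as independent. There is no p-value, since each group is 1 library. Genes with at least 100 UMIs over both libraries entered ratios, with 10 CPM added where cells with and without Il4 were compared. Shares were also taken after thinning each cell to 1300 UMIs (seed 0), and weighted shares match cells without Il4 to the depth of those with it in 10 depth classes. A count of 0 allows up to 3. Genes named were Il4, its locus neighbours and regulators, cytokine genes seen in at least 5 cells with Il4, the 10 genes most like Il4, the 12 highest and 6 lowest in cells with Il4, and up to 4 members of each list, of which some are not reported here. The gene, the lists and the rules were chosen with earlier results of these data known. The steps were tested on simulated data.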

Additional observations from a re-analysis of the deposited data

How the results depend on the processing

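No paired analysis was possible because each group is 1 library, so leaving out a replicate was not possible either. Of 103 alternatives to the choices made, 70 stayed within the interval of the main value or within 1.5 times its count. The other 33 lay outside. A turn of direction was looked for in the Il4 level alone, where 0 alternatives showed one. The log2 ratio of Il4 (2.31) was 0.97 with equal cluster shares and 2.08 to 2.51 otherwise. Genes at least 1.5-fold higher in CD27_KO (692) were 1295 from 20 UMIs, 2017 from 1 UMI and 328 with median-ratio scaling. Genes lower (281) were 721 and 1396 at those minimums and 421 with that scaling, under which more genes were lower than higher. The thinned share with Il4 in WT (0.95%) was 2.04% unthinned, 1.67% at 2000 UMIs, 1.25% with another seed and 0.158% at 2 UMIs a cell. In CD27_KO (5.20%) it was 10.4% unthinned, 4.06% at 1000 UMIs, 8.72% at 2000, 5.80% with another seed and 0.906% at 2 UMIs a cell. The share of positive cells with 2 or more UMIs was 16.7% (WT) and 17.4% (CD27_KO) after thinning, and in CD27_KO 37.3% above the median depth and 36.9% from 1000 genes. Cells with Il4 that were Th2-like (41.7% and 62.2%) were 27.6% and 43.0% with all cytokines left out of the clustering. In the Il1rl1 and Gata3 class the thinned shares were 3.56% and 12.2%, and WT was 11.6% when 2 UMIs were asked of the gate genes. Within Th2-like cells, cytokine genes higher with Il4 were 5 and 1, genes higher with Il4 were 1 and genes lower were 7. Genes lower with Il4 (22) were 56 at 2 Il4 UMIs and 43 without the richest cell of each gene, an alternative chosen after seeing the data. Depth limits the shares: 1 UMI is most of what a positive cell shows, so cells without one may still express Il4.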

Other observations

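A few cells stood out by the number of cytokine UMIs they held. One WT T cell with 3 Il4 UMIs had 24737 UMIs in all, among them 162 of Csf2, 128 of Ccl1, 52 of Il2, 48 of Il13 and 18 of Il5. It is the cell behind much of the WT level of Ccl1 and Il13 in cells with Il4. The CD27_KO cell with 25 Il4 UMIs, with 3219 UMIs in all, had 18 of Csf2 and 9 of Ifng.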
